A study of Mus musculus with 6 samples.

Results

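The immediate early transcription factors Fos, Fosb, Jun, Junb, Egr1, Egr2, Egr3, Ier2, Atf3 and Myc were followed by gene symbol in a table of read counts from cultured cells of the mouse intervertebral disc. All 10 symbols were found among the 46095 genes of the table, and all 10 passed the filter on low counts that left 16061 genes for testing. The cells were labelled as primary nucleus pulposus cells, which form the soft core of the disc, from mice of 8 weeks of age. The 3 genotypes were Chsy3 knockout, Chsy3 heterozygous and wild type, with 2 libraries each, and Chsy3 encodes an enzyme that builds chondroitin sulfate chains. Every culture, wild type included, had been released with collagenase for 2 h, grown in medium with 20% fetal bovine serum and used at passage 2, and every library is labelled male. The sources used here do not say which strain was used, how Chsy3 was altered or how many animals stand behind a library, and the series title speaks of a knockdown where the sample labels give a knockout, the word used here. The p-values measure the spread between these libraries, which may be technical.

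Immediate early genes are transcribed within minutes of a stimulus such as serum, growth factors or cell stress, without the need for new protein synthesis. The proteins of Fos, Fosb, Jun, Junb and Atf3 carry a basic region and a leucine zipper and pair with each other or with related proteins to bind AP-1 and cAMP response elements. Egr1, Egr2 and Egr3 encode zinc finger factors that bind GC-rich sites, Ier2 encodes a small nuclear protein, and Myc encodes a factor that binds E-boxes with Max and drives growth genes. Their messages are mostly short-lived. Each value here is a level in growing cultures, not a response to a timed stimulus.

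Total counts ranged from 29622117 to 33899611 per library. Chsy3 had 118 and 76 counts in knockout, 167 and 197 in heterozygous, and 284 and 284 in wild type, so knockout held 34.7% and heterozygous 71.8% of the wild-type level in the edgeR fit. The Y-linked gene Ddx3y had 998 and 1081 counts in knockout, 0 and 0 in heterozygous, and 929 and 730 in wild type, and 3 other Y-linked genes were at 0 in the heterozygous libraries too. Xist, the RNA of the inactive X chromosome of females, had 651 and 654 CPM (the count scaled to library size) in knockout, 1080 and 1072 CPM in heterozygous, and 664 and 654 CPM in wild type. All 6 libraries thus hold Xist against their male label, and the knockout and wild-type libraries hold Y-linked reads as well. Sex and genotype cannot be told apart in any comparison with the heterozygous libraries. In knockout against wild type the Y-linked genes Ddx3y (log2 0.35 ± 0.11) and Eif2s3y (log2 0.38 ± 0.12) were higher (SE, edgeR quasi-likelihood test with Benjamini-Hochberg adjustment, adjusted p = 0.00755 and 0.0117). The Y-linked Uty and Kdm5d and Xist did not pass there (edgeR, adjusted p = 0.125, 0.884 and 0.672). Whether the sex makeup of knockout and wild type differed was not tested beyond these genes. With the heterozygous libraries left out of the fit, knockout against wild type gave the same 2 higher and 4 lower of the 10 genes as with them. Of 12 nucleus pulposus and notochord markers 6 passed the filter, with Pax1 at 19.8 to 68.5 CPM and Foxf1 at 17.7 to 37.2 CPM as the highest. The notochord genes T, Shh and Noto were at 0 in every library, and Acan, the main proteoglycan gene of the disc core, had no count in 5 of the 6. The fibroblast marker Fn1 (10020 to 16196 CPM) and the macrophage marker Lyz2 (7010 to 8845 CPM) were abundant. In such mixed cultures, fewer cells of a type and less RNA per cell cannot be told apart.

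The 10 genes share a compact structure. In the GENCODE M21 annotation (build GRCm38) they spanned 1522 to 47744 bases with a median of 5073, against a median of 24666 over 13126 tested protein-coding genes, and 90% of them were under 10 kb, against 23.5%. Their longest coding transcripts had 1 to 4 exons, against a median of 9, and those of Jun, Junb and Ier2 had 1. The pentamer ATTTA, the core of AU-rich elements that mark messages for decay, occurred in the 3' UTR of 90% of the 10 genes, against 69.9% of 13059 genes. Its density was 4.91 per kb in Fos, 4.52 in Myc and 4.12 in Junb, 0.466 in Fosb and 0 in Ier2, against a median of 1.31.

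Promoter windows are shown for 5 of the genes because many signals act on such genes at their promoters, and because these 5 took different courses across the genotypes. RefSeq windows on build GRCm38.p6 were matched by symbol for 6 of the 10 genes, namely Fos, Fosb, Jun, Junb, Egr2 and Atf3. The 250 bases before a transcript start given by RefSeq are printed 5′ to 3′ on the strand of the gene, with motif matches in capitals. For Egr2, which has 5 windows, the window printed was picked after the matches were seen, because it holds a CArG box. The windows of Atf3 and Egr2 lie inside the spans that GENCODE M21 gives these genes, before internal starts.
Fos, chr12:85473640-85473889, plus strand: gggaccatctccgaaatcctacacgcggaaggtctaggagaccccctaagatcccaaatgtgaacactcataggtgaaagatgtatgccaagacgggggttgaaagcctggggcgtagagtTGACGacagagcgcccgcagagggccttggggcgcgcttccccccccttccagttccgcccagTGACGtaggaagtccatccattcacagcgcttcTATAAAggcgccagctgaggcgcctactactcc
Fosb, chr7:19310046-19310295, minus strand: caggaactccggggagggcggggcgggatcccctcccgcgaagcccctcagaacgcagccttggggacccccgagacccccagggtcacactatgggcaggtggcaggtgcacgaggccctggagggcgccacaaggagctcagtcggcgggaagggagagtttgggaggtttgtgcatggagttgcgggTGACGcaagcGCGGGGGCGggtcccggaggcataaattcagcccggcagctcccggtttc
Jun, chr4:95052223-95052472, minus strand: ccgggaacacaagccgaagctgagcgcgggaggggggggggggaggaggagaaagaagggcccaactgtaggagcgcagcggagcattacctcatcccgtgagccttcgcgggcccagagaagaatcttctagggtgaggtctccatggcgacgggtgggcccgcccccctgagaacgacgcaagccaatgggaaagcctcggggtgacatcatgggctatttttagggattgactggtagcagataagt
Atf3, chr1:191183334-191183583, minus strand: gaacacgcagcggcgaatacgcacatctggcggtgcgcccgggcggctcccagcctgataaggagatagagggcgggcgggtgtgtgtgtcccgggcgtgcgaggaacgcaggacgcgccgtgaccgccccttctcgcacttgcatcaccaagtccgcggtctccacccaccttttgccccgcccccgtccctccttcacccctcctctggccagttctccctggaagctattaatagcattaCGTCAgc
Egr2, chr10:67537620-67537869, plus strand: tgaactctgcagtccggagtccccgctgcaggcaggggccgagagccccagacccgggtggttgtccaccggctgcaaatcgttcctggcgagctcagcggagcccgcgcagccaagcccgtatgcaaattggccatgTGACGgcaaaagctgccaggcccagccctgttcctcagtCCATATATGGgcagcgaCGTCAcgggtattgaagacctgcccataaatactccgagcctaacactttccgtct

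The motifs searched on both strands were TGACG, the core of the cAMP response element that CREB and ATF proteins bind, the AP-1 site TGANTCA, the CArG box bound by serum response factor, the EGR site GCGNGGGCG, the E-box CACGTG and the TATA box TATAAA. Over all 32851 windows the shares that hold them were 17.8% for TGACG, 6.75% for the AP-1 site, 1.47% for the CArG box, 4.70% for the EGR site, 6.02% for the E-box and 12.4% for the TATA box. No match overlapped another in the windows printed. TGACG was found for Fos, Fosb, Junb, Atf3 and Egr2, and none of these motifs was among the letters of the Jun window. In Fos the nearest TGACG began at position -66, counted back from the transcript start of the window, and a TATA box at -33. In Fosb a TGACG at -60 was followed by an EGR site at -50. In the Egr2 window, which ends at an internal start, a CArG box at -73 was followed by a TGACG match on the other strand at -56.

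Across the genotypes the 10 genes did not move as a block. In knockout against wild type, Egr1, Egr3, Fos and Myc were lower, Atf3 and Jun were higher, and Fosb, Junb, Egr2 and Ier2 did not pass the threshold, an adjusted p of 0.05. These are 2 higher and 4 lower of 10, where 38.0% of all 16061 tested genes passed, 19.2% higher and 18.9% lower. In heterozygous against wild type, Egr1, Myc, Junb, Fos, Ier2 and Egr3 were lower, Fosb and Jun were higher, and Egr2 and Atf3 did not pass. These are 2 higher and 6 lower of 10, where 38.9% of all genes passed, 19.2% higher and 19.7% lower. The calls of Fos, Fosb and Egr3 in heterozygous against wild type were lost without wild-type library 1. Both comparisons share the wild-type libraries.

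The median log2 fold change in knockout against wild type was -0.13 over the 10 genes and -0.0031 over all tested genes. In heterozygous against wild type it was -0.43 over the 10 genes and -0.0029 over all. The groups of libraries were apart for 9 of the 10 genes in knockout against wild type, where this held for 66.6% of all genes. In heterozygous against wild type it was also 9 of 10, where this held for 67.0% of all genes. The changes were mostly small, and Egr1 alone among the 10 reached 2-fold, in both comparisons.

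**Figure D1:**
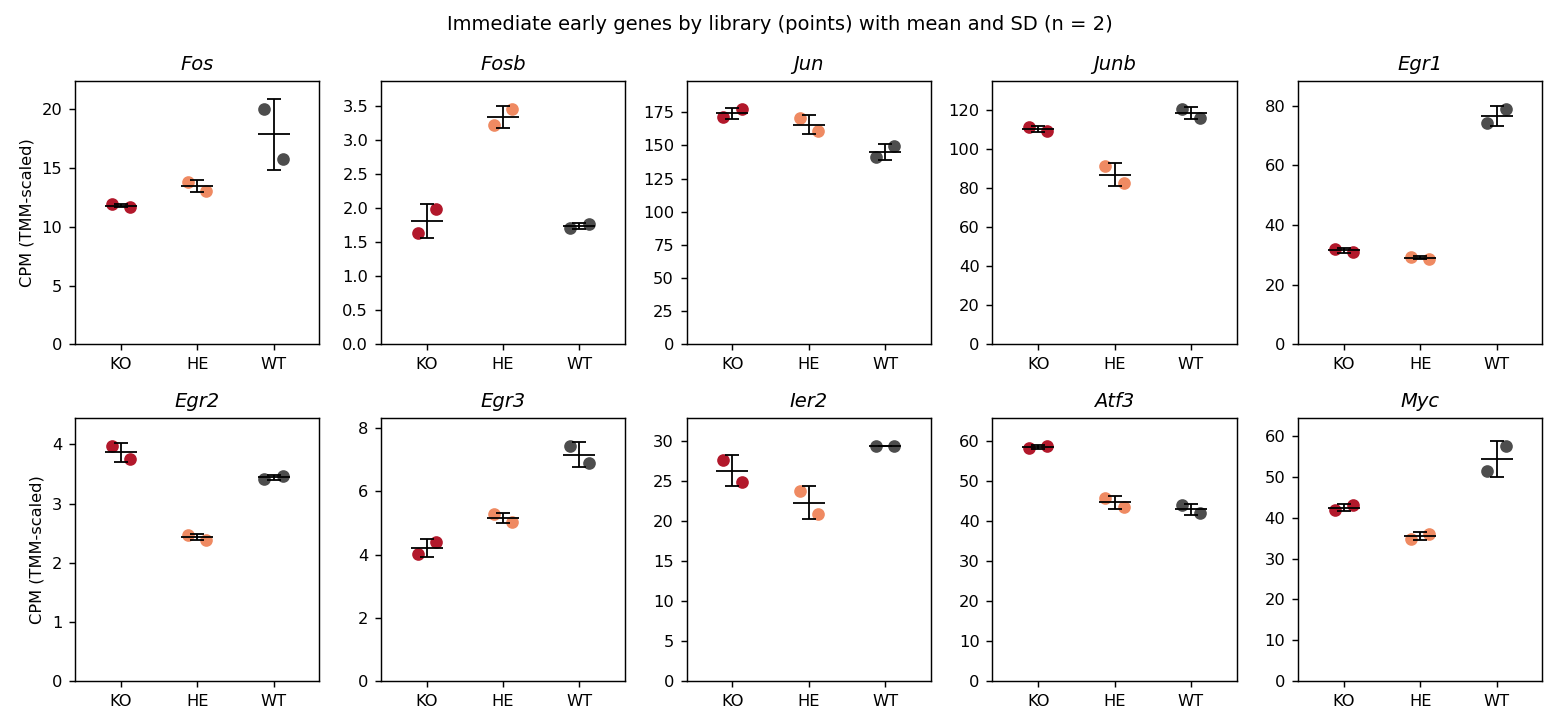
Level of each immediate early gene in CPM scaled by TMM (vertical axes, each from 0) in the knockout (KO), heterozygous (HE) and wild-type (WT) libraries; points are libraries, and bars are the mean and SD of 2 libraries. Egr1 lies between 28.7 and 32.0 CPM in the knockout and heterozygous libraries and between 74.3 and 78.9 CPM in wild type, while Fosb is highest in the heterozygous libraries and Atf3 in the knockout libraries.

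Among the AP-1 genes, Fos (chr12:85473890-85477273, plus strand), which encodes c-Fos, was lower in both mutant genotypes. It had 11.9 and 11.7 CPM in knockout, 13.8 and 13.1 CPM in heterozygous, and 20.0 and 15.7 CPM in wild type. The wild-type libraries were both above all others but lay apart by 23.9% of their mean. Knockout differed from wild type by -0.60 ± 0.12 log2 (SE, edgeR quasi-likelihood test with Benjamini-Hochberg adjustment, adjusted p = 9.2e-05). Heterozygous differed from wild type by -0.41 ± 0.12 log2 (SE, edgeR, adjusted p = 0.00603). The heterozygous call rested on wild-type library 1, the higher one. Without it the difference was -0.23 log2 (edgeR, adjusted p = 0.279), and the 13 alternatives gave adjusted p-values between 0.000537 and 0.279.

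Fosb (chr7:19302696-19310051, minus strand), a close relative of Fos, took the opposite course in the heterozygous cultures. Its counts were low, with 54 and 68 in knockout, 93 and 110 in heterozygous, and 58 and 60 in wild type, and counting error alone is 13.6% at 54 counts. In CPM this was 1.64 and 1.99 in knockout, 3.23 and 3.46 in heterozygous, and 1.70 and 1.77 in wild type. Both heterozygous libraries were above the other 4, and knockout and wild type overlapped. The heterozygous level of Fosb was 1.92-fold that of wild type (log2 0.94 ± 0.30, SE, edgeR, adjusted p = 0.0111). Knockout differed from wild type by 0.07 ± 0.31 log2 (SE, edgeR, adjusted p = 0.898). The heterozygous call was lost without heterozygous library 2 (log2 0.89, edgeR, adjusted p = 0.0661) or wild-type library 1 (log2 0.92, edgeR, adjusted p = 0.06), and the 13 alternatives spanned 0.0103 to 0.0661. The ratio of Fos to Fosb, each per length of its exons, was 19.3 and 15.6 in knockout, 11.4 and 10.04 in heterozygous, and 31.2 and 23.7 in wild type. The 3 genotypes did not overlap in this ratio, but it rests on the low Fosb counts and was not tested.

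Jun (chr4:95049034-95052222, minus strand), which encodes c-Jun, had the most reads of the 10 genes and was slightly higher in both mutant genotypes. It had 171 and 177 CPM in knockout, 171 and 161 CPM in heterozygous, and 141 and 150 CPM in wild type. Each knockout and heterozygous library was above both wild-type libraries. Knockout differed from wild type by 0.26 ± 0.04 log2 (SE, edgeR, adjusted p = 5.08e-07) and heterozygous from wild type by 0.19 ± 0.04 (SE, edgeR, adjusted p = 0.00016). The antisense gene Junos shares 232 bases of exon with Jun, and reads of both cannot be told apart without the strand. Junos had 127 to 213 counts in a library, where Jun had 4797 to 6047. The ratio of Jun to Fos per exon length was 10.6 and 11.2 in knockout, 9.12 and 9.05 in heterozygous, and 5.195 and 7.005 in wild type.

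Junb (chr8:84974484-84978718, minus strand), whose protein can take the place of c-Jun in AP-1 pairs, was lower in heterozygous cultures. It had 111 and 109 CPM in knockout, 91.2 and 82.7 CPM in heterozygous, and 120 and 116 CPM in wild type. The heterozygous libraries were below all others. Heterozygous differed from wild type by -0.44 ± 0.05 log2 (SE, edgeR, adjusted p = 2.24e-10). Knockout differed from wild type by -0.10 ± 0.05 log2, which missed the threshold (SE, edgeR, adjusted p = 0.0819). Junb shares 173 bases of exon with Prdx2 on the opposite strand, a gene at 142 to 163 CPM, so a part of the Junb reads is uncertain.

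Atf3 (chr1:191170296-191218039, minus strand), a stress-induced factor that can repress as well as activate, was highest in knockout. It had 58.1 and 58.7 CPM in knockout, 45.8 and 43.5 CPM in heterozygous, and 43.9 and 41.9 CPM in wild type. Both knockout libraries were above the other 4, and heterozygous and wild type overlapped. Atf3 was 1.36-fold higher in knockout than in wild type (log2 0.45 ± 0.06, SE, edgeR, adjusted p = 1.63e-07) and 1.31-fold higher in knockout than in heterozygous (log2 0.39 ± 0.06, SE, edgeR, adjusted p = 3.15e-06). Heterozygous differed from wild type by 0.06 ± 0.07 log2 (SE, edgeR, adjusted p = 0.537).

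**Figure D2:**
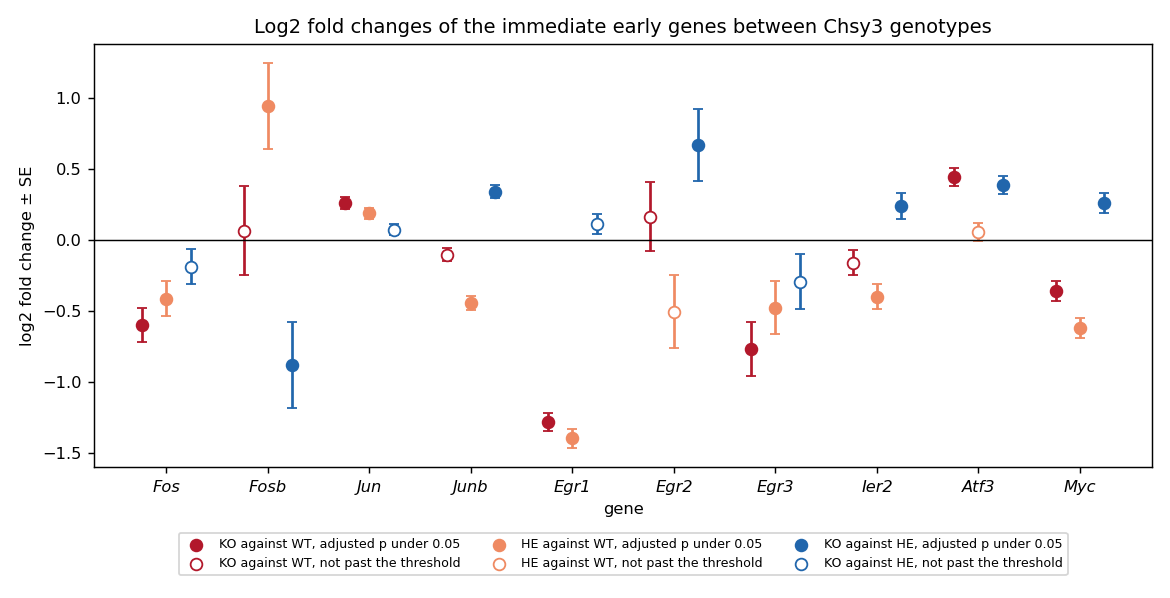
Log2 fold change with SE (vertical axis) of each gene (horizontal axis) in knockout against wild type, heterozygous against wild type and knockout against heterozygous; filled points passed an adjusted p of 0.05 and open points did not. Egr1 is lowest at -1.28 in knockout and -1.40 in heterozygous, each against wild type, and near 0 between knockout and heterozygous, and Fosb is highest at 0.94 in heterozygous against wild type.

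Levels of different genes were compared per length, as RPKM, the CPM divided by the kilobases of exon in GENCODE M21. Over 12 genes of AP-1 subunits the summed RPKM was 313 and 315 in knockout, 318 and 305 in heterozygous, and 328 and 320 in wild type. Jund, a subunit that is expressed steadily in most cells, held 38.2% ± 0.0360 of this sum in knockout, 42.9% ± 0.299 in heterozygous and 43.0% ± 0.676 in wild type (SD, n = 2 each, as for the shares that follow). Jun held 17.4% ± 0.371 in knockout, 16.7% ± 0.227 in heterozygous and 14.1% ± 0.809 in wild type. Junb held 15.3% ± 0.274 in knockout, 12.1% ± 0.475 in heterozygous and 15.9% ± 0.155 in wild type. Jund, Jun and Junb thus had the 3 largest mean shares in each genotype. Atf3 held 8.64% ± 0.0352 in knockout, 6.65% ± 0.0465 in heterozygous and 6.14% ± 0.0986 in wild type. Fos held 1.60% ± 0.0272 in knockout, 1.83% ± 0.0150 in heterozygous and 2.34% ± 0.359 in wild type, and Fosb held at most 0.182% in any library. Fosl2, which encodes Fra-2, was the most abundant Fos-type subunit, with 9.51% ± 0.0498 in knockout, 10.6% ± 0.329 in heterozygous and 9.90% ± 0.0701 in wild type. Shares of one sum depend on each other, and they were not tested.

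**Figure D3:**
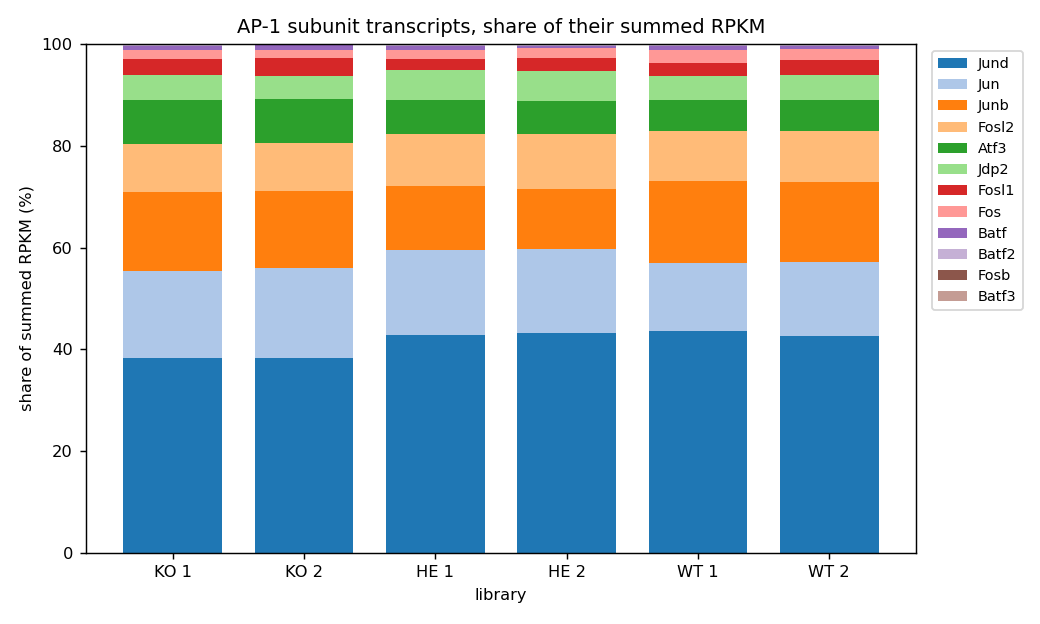
Share of each of 12 AP-1 subunit genes in their summed RPKM (vertical axis, percent) in each knockout (KO), heterozygous (HE) and wild-type (WT) library (horizontal axis). Jund is the largest part in every library, Junb is narrower in the heterozygous libraries, and Atf3 is wider in the knockout libraries.

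Egr1 (chr18:34859823-34864984, plus strand), a serum-induced zinc finger factor often used as a marker of growth factor signalling, showed the largest change of the 10 genes against wild type. It had 1056 and 1056 counts in knockout, 847 and 914 in heterozygous, and 2527 and 2680 in wild type. In CPM this was 32.0 and 31.0 in knockout, 29.4 and 28.7 in heterozygous, and 74.3 and 78.9 in wild type. Every mutant library was far below both wild-type libraries. Knockout was at 41.1% of wild type (log2 -1.28 ± 0.07, SE, edgeR, adjusted p = 2.41e-20), and heterozygous was at 37.9% of wild type (log2 -1.40 ± 0.07, SE, edgeR, adjusted p = 2.48e-21). Of all tested genes, 6.82% passed with at least a 2-fold change in knockout against wild type and 7.11% in heterozygous against wild type. Over 13 alternatives the log2 change of Egr1 lay between -1.32 and -1.24 in knockout and between -1.44 and -1.36 in heterozygous.

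Egr3 (chr14:70077203-70082614, plus strand), a relative that is itself induced by early signals, was lower in both mutant genotypes like Egr1, at a much lower level. It had 4.005 and 4.40 CPM in knockout, 5.27 and 5.03 CPM in heterozygous, and 7.44 and 6.89 CPM in wild type. The genotypes did not overlap, and wild type was highest. Knockout differed from wild type by -0.77 ± 0.19 log2 (SE, edgeR, adjusted p = 0.000954), and heterozygous from wild type by -0.48 ± 0.19 (SE, edgeR, adjusted p = 0.0406). The heterozygous call was lost with DESeq2 (adjusted p = 0.0613) and with no filter on low counts (edgeR, adjusted p = 0.058). It was also lost without any single one of the heterozygous and wild-type libraries (edgeR, adjusted p = 0.073 to 0.192), and the 13 alternatives gave 0.025 to 0.192.

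Egr2 (chr10:67535475-67542188, plus strand), best known for its part in the myelination of nerves and also active in macrophages, had a pattern of its own among the EGR genes. It had 3.97 and 3.75 CPM in knockout, 2.46 and 2.39 CPM in heterozygous, and 3.41 and 3.47 CPM in wild type. The knockout libraries were above those of wild type and the heterozygous libraries below them. Neither difference from wild type passed, at 0.17 ± 0.25 log2 in knockout (SE, edgeR, adjusted p = 0.647) and -0.50 ± 0.26 log2 in heterozygous (SE, edgeR, adjusted p = 0.12), and counting error alone was 11.9% at the lowest count of 71. Knockout was higher than heterozygous by 0.67 ± 0.25 log2 (SE, edgeR, adjusted p = 0.0347). That call was lost without any single one of these 4 libraries (edgeR, adjusted p = 0.0884 to 0.143), and the 13 alternatives gave 0.0187 to 0.143.

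Ier2 (chr8:84661331-84662852, minus strand) had 27.6 and 24.9 CPM in knockout, 23.7 and 20.8 CPM in heterozygous, and 29.33 and 29.28 CPM in wild type. Wild type was above all other libraries. The fall passed in heterozygous against wild type (log2 -0.40 ± 0.09, SE, edgeR, adjusted p = 0.000341), and the difference of -0.16 ± 0.09 log2 between knockout and wild type did not (SE, edgeR, adjusted p = 0.159).

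Myc (chr15:61985391-61990374, plus strand) had 41.9 and 43.1 CPM in knockout, 34.8 and 36.1 CPM in heterozygous, and 51.4 and 57.7 CPM in wild type, with no overlap between genotypes. It was at 78.0% of wild type in knockout (log2 -0.36 ± 0.07, SE, edgeR, adjusted p = 2.82e-05) and at 65.1% of wild type in heterozygous (log2 -0.62 ± 0.07, SE, edgeR, adjusted p = 6.7e-10). Knockout was above heterozygous by 0.26 ± 0.07 log2 (SE, edgeR, adjusted p = 0.00276) (sex and genotype cannot be told apart here).

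By RPKM, Jun and Junb were the most abundant of the 10 in all genotypes. Jun had 54.6 ± 1.35 RPKM in knockout, 51.9 ± 2.25 in heterozygous and 45.6 ± 1.89 in wild type (SD, n = 2 each, as for the levels that follow). Junb had 47.9 ± 0.692 RPKM in knockout, 37.8 ± 2.598 in heterozygous and 51.4 ± 1.33 in wild type. By this measure Jun was above Junb in each knockout and heterozygous library and below it in both wild-type libraries. The ratio of Jun to Junb was 1.11 and 1.17 in knockout, 1.35 and 1.400 in heterozygous, and 0.845 and 0.929 in wild type. Which of the 2 genes is higher depends on the length used. All exons of Junb cover 2301 bases and its longest coding transcript 1809, where both are 3189 for Jun. Junb also shares 173 bases of exon with Prdx2, so their order within a genotype is uncertain. In wild type the next levels were 20.1 ± 1.62 RPKM for Myc, 19.9 ± 0.640 for Atf3 and 19.3 ± 0.0246 for Ier2, which did not differ beyond their spread. Egr1 followed with 17.1 ± 0.724 RPKM in wild type, where it had 7.03 ± 0.170 in knockout and 6.48 ± 0.0987 in heterozygous. The lowest wild-type levels were 7.60 ± 1.28 RPKM for Fos, 1.63 ± 0.0883 for Egr3, 1.013 ± 0.0131 for Egr2 and 0.278 ± 0.00690 for Fosb. Among 14852 tested genes with an exon length, Jun ranked at place 837 and Fosb at place 12935 by mean RPKM.

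Knockout was also set against heterozygous, where genotype and the sex-linked reads differ together. In this comparison 5 of the 10 were higher in knockout, namely Junb, Atf3, Myc, Egr2 and Ier2, and 1, Fosb, was lower, where 37.1% of all tested genes passed, 19.1% higher and 17.9% lower. The median was 0.18 log2 over the 10 genes and 0.012 over all tested genes. The groups of libraries were apart for 10 of 10 genes, where this held for 65.7% of all genes. Junb differed by 0.34 ± 0.05 log2 (SE, edgeR, adjusted p = 1.28e-07), Ier2 by 0.24 ± 0.09 (SE, edgeR, adjusted p = 0.0336) and Fosb by -0.88 ± 0.30 (SE, edgeR, adjusted p = 0.019). Egr1 differed by 0.12 ± 0.07 log2 (SE, edgeR, adjusted p = 0.212), Fos by -0.19 ± 0.13 (SE, edgeR, adjusted p = 0.266), Egr3 by -0.29 ± 0.19 (SE, edgeR, adjusted p = 0.256) and Jun by 0.07 ± 0.04 (SE, edgeR, adjusted p = 0.151), and none of these passed.

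The calls of Fosb, Egr2 and Ier2 in this comparison were lost without knockout library 1 and also without heterozygous library 2. Fosb was at -0.74 log2 without knockout library 1 and -0.82 without heterozygous library 2 (edgeR, adjusted p = 0.145 and 0.0938, with 0.0115 to 0.145 over 13 alternatives). Ier2 was at 0.16 log2 without knockout library 1 and 0.15 without heterozygous library 2 (edgeR, adjusted p = 0.3 and 0.327, with 0.00605 to 0.327 over 13 alternatives), and it did not pass with DESeq2 (adjusted p = 0.0654). With libraries scaled by their totals alone, Jun at 0.14 log2 and Egr1 at 0.18 log2 passed as well (edgeR, adjusted p = 0.00458 and 0.0395). Their alternatives ran up to 0.674 for Jun and 0.481 for Egr1. That scaling gave 4126 higher and 2256 lower genes over the whole table, against 3070 higher and 2881 lower with TMM factors.

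Patterns over the 6 libraries were compared by the root mean square difference in log2 CPM after each gene was centred on its own mean. Within the 10 genes the closest pairs were Junb and Ier2, at 0.058, Fos and Egr3, at 0.11, and Jun and Atf3, at 0.14, and the most distant pair was Fosb and Egr1, at 0.95. Egr1 varied most, over a range of 1.45 log2 between libraries, and Jun least, over 0.33. The root mean square of Jun about its own mean was 0.12, below its distance to Atf3. The closeness of Jun and Atf3 thus does not show a shared course. Among 9659 other genes whose mean reached 3 on the log2 CPM scale, those nearest to Egr1 were Adgra2, Adgrg6 and Slit2, at 0.052 to 0.099. Nearest to Fos were Fitm2, Top1mt and Dysf, and to Egr3 Pamr1, Glipr2 and Id3. Nearest to Jun were Zbtb7a, Zfp65 and Lmbrd2, to Junb Mpv17l2, Ube2s and Faap24, and to Ier2 Tbrg4, Faap24 and Wdr74. Nearest to Egr2 were H2afx, Lgals9 and Siglec1, to Atf3 Snx24, Atp1b3 and Atp6ap2, and to Myc Epha2, Sulf1 and Anxa3.

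The lists of related genes that follow are to be read against the same shares of all tested genes, 19.2% higher and 18.9% lower in knockout against wild type and 19.2% higher and 19.7% lower in heterozygous against wild type. Of 15 other immediate early transcription factors that were tested, 1 was higher and 8 were lower in knockout against wild type, with a median of -0.16 log2. In heterozygous against wild type 1 was higher and 8 were lower, with a median of -0.20 log2. Hes1, a repressor downstream of Notch, had 12.5 ± 0.494 CPM in knockout, 9.82 ± 0.209 in heterozygous and 35.2 ± 0.823 in wild type (SD, n = 2 each). It differed from wild type by -1.49 ± 0.10 log2 in knockout (SE, edgeR, adjusted p = 2.07e-16) and by -1.84 ± 0.10 in heterozygous (SE, edgeR, adjusted p = 7.26e-19). Klf10, an early response gene of TGF-beta, changed against wild type by -0.63 ± 0.07 log2 in knockout (SE, edgeR, adjusted p = 3.47e-10) and by -0.48 ± 0.07 in heterozygous (SE, edgeR, adjusted p = 2.55e-07). Klf6 was the gene that rose in knockout (log2 0.24 ± 0.03, SE, edgeR, adjusted p = 9.72e-08). Ier5 was lower in heterozygous (log2 -0.32 ± 0.05, SE, edgeR, adjusted p = 3.14e-07).

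Of 7 other AP-1 subunits, 0 were higher and 2 lower in knockout against wild type, with a median of -0.08 log2, and 1 was higher and 0 lower in heterozygous against wild type, with a median of -0.06. Both shares are below those of all tested genes, 38.0% in knockout and 38.9% in heterozygous. Those lower in knockout were Jund (log2 -0.22 ± 0.03, SE, edgeR, adjusted p = 9.14e-07) and Fosl2 (log2 -0.10 ± 0.03, SE, edgeR, adjusted p = 0.00369). Fosl1, which encodes Fra-1, missed the threshold at 0.25 ± 0.11 log2 in knockout (SE, edgeR, adjusted p = 0.0555, and 0.0251 to 0.432 over the alternatives) and at -0.26 ± 0.11 in heterozygous (SE, edgeR, adjusted p = 0.055, and 0.0219 to 0.444 over the alternatives). Jund in heterozygous was at -0.06 ± 0.03 log2 (SE, edgeR, adjusted p = 0.149), and it passed with library totals alone at -0.10 log2 (edgeR, adjusted p = 0.0122, in alternatives up to 0.67). Jdp2, a repressor of AP-1, was the gene that rose in heterozygous (log2 0.22 ± 0.07, SE, edgeR, adjusted p = 0.0144). It did not pass without heterozygous library 1 or wild-type library 1 (edgeR, adjusted p = 0.0766 and 0.0837, with 0.0109 to 0.0837 over the alternatives). The heterozygous count of 1 was 0 without heterozygous library 1 and 2 without heterozygous library 2, and with library totals alone it was 3, of which 1 was higher and 2 lower.

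Of 18 immediate early genes that encode no transcription factor, 4 were higher and 8 lower in knockout against wild type (median -0.14 log2), and 0 were higher and 10 lower in heterozygous against wild type (median -0.23). Cyr61, a secreted matrix-associated protein, changed by -0.95 ± 0.03 log2 in knockout (SE, edgeR, adjusted p = 2.29e-30) and by -0.40 ± 0.03 in heterozygous (SE, edgeR, adjusted p = 2.07e-17). Its relative Ctgf changed by -0.84 ± 0.02 log2 in knockout (SE, edgeR, adjusted p = 6.07e-30) and by -0.82 ± 0.02 in heterozygous (SE, edgeR, adjusted p = 1.95e-29). Mcl1, a survival gene, rose in knockout (log2 0.21 ± 0.03, SE, edgeR, adjusted p = 4.47e-08). Ptgs2, which encodes cyclooxygenase 2, had 60.3 ± 1.83 CPM in knockout, 25.6 ± 0.447 in heterozygous and 52.5 ± 1.85 in wild type (SD, n = 2 each). It fell in heterozygous against wild type by 1.03 ± 0.07 on the log2 scale (SE, edgeR, adjusted p = 1.7e-16).

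Of 15 genes that feed back on early gene signalling, 8 were higher and 3 lower in knockout against wild type (median 0.17 log2), and 5 were higher and 4 lower in heterozygous against wild type (median -0.02). Dusp4, a phosphatase of MAP kinases, was higher by 0.84 ± 0.07 log2 in knockout (SE, edgeR, adjusted p = 1.31e-13) and by 0.60 ± 0.07 in heterozygous (SE, edgeR, adjusted p = 2.92e-09). Zfp36l1, which promotes the decay of AU-rich messages, was higher by 0.47 ± 0.04 log2 in knockout (SE, edgeR, adjusted p = 6.62e-13) and by 0.55 ± 0.04 in heterozygous (SE, edgeR, adjusted p = 6.73e-15). Nab2, a corepressor of EGR proteins, changed by -0.37 ± 0.04 log2 in knockout (SE, edgeR, adjusted p = 7.39e-10) and by -0.26 ± 0.04 in heterozygous (SE, edgeR, adjusted p = 2.36e-06). Dusp1, another MAP kinase phosphatase, was lower in heterozygous (log2 -0.67 ± 0.06, SE, edgeR, adjusted p = 7.73e-13).

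Of 19 upstream kinases and nuclear factors, 4 were higher and 4 lower in knockout against wild type, with a median of 0.05 log2, and 3 were higher and 2 lower in heterozygous against wild type, with a median of -0.01. The knockout share is close to the 38.0% of all tested genes that passed, and the heterozygous share is below the 38.9%. Rps6ka3, which encodes the ERK-activated kinase RSK2, was higher by 0.55 ± 0.04 log2 in knockout (SE, edgeR, adjusted p = 6.2e-16) and by 0.25 ± 0.04 in heterozygous (SE, edgeR, adjusted p = 8.25e-07). Its relative Rps6ka1 was higher by 0.25 ± 0.04 log2 in knockout (SE, edgeR, adjusted p = 7.71e-06) and by 0.16 ± 0.04 in heterozygous (SE, edgeR, adjusted p = 0.00428). Mapk9, a JNK gene, was lower in knockout (log2 -0.26 ± 0.06, SE, edgeR, adjusted p = 0.000354). Map2k2, which encodes MEK2, was lower in knockout (log2 -0.13 ± 0.04, SE, edgeR, adjusted p = 0.00674). In heterozygous Map2k2 was lower as well (log2 -0.22 ± 0.04, SE, edgeR, adjusted p = 1.41e-05). So was Srf, which encodes serum response factor (log2 -0.22 ± 0.05, SE, edgeR, adjusted p = 0.0011), though not without heterozygous library 1 (edgeR, adjusted p = 0.0543, the highest of alternatives that began at 0.000138). Without knockout library 2 the knockout counts were 2 higher and 3 lower.

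Of 9 partners and antagonists of Myc that were tested, 3 were higher and 0 lower in knockout against wild type, with a median of 0.11 log2, and 4 were higher and 1 lower in heterozygous against wild type, with a median of 0.25. Mnt, which competes with Myc for Max, was higher by 0.34 ± 0.06 log2 in knockout (SE, edgeR, adjusted p = 7.93e-06) and by 0.40 ± 0.06 in heterozygous (SE, edgeR, adjusted p = 4.33e-07). Mga, another partner of Max, was higher by 0.12 ± 0.04 log2 in knockout (SE, edgeR, adjusted p = 0.0328) and by 0.25 ± 0.04 in heterozygous (SE, edgeR, adjusted p = 9.98e-06). The knockout call of Mga was lost without any single knockout or wild-type library (edgeR, adjusted p = 0.0974 to 0.145, and 0.0101 to 0.145 over the alternatives). Mxd1 was higher in knockout (log2 0.34 ± 0.12, SE, edgeR, adjusted p = 0.0201), but not without knockout library 2 or wild-type library 1 (edgeR, adjusted p = 0.169 and 0.152, with 0.0131 to 0.169 over the alternatives). Without either of these libraries the knockout count was 1 higher. Mxi1 was higher in heterozygous (log2 0.49 ± 0.09, SE, edgeR, adjusted p = 1.06e-05).

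Of 16 genes of ribosome and nucleotide synthesis that are known Myc targets, 0 were higher and 10 lower in knockout against wild type, and 0 were higher and 16 lower in heterozygous against wild type. Their medians were -0.25 log2 in knockout, beside -0.0031 over all tested genes, and -0.42 in heterozygous, beside -0.0029. Ncl, which encodes nucleolin, changed by -0.28 ± 0.03 log2 in knockout (SE, edgeR, adjusted p = 3.09e-12) and by -0.42 ± 0.03 in heterozygous (SE, edgeR, adjusted p = 2.65e-17). Npm1, which encodes nucleophosmin, changed by -0.30 ± 0.03 log2 in knockout (SE, edgeR, adjusted p = 1.58e-12) and by -0.34 ± 0.03 in heterozygous (SE, edgeR, adjusted p = 1.1e-13). Cad, a pyrimidine synthesis enzyme, changed by -0.50 ± 0.05 log2 in knockout (SE, edgeR, adjusted p = 3.41e-11) and by -0.58 ± 0.05 in heterozygous (SE, edgeR, adjusted p = 1.31e-12). Mybbp1a, a nucleolar protein gene, changed by -0.29 ± 0.04 log2 in knockout (SE, edgeR, adjusted p = 1.32e-08) and by -0.43 ± 0.04 in heterozygous (SE, edgeR, adjusted p = 4.6e-13). In knockout against heterozygous, where sex and genotype cannot be told apart, 8 of the 16 were higher and 1 lower. Of all tested genes, 19.1% were higher and 17.9% lower in that comparison. Both counts of the list fell when knockout library 2 was left out.

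Of 10 tested heat shock genes, 1 was higher and 8 were lower in knockout against wild type (median -0.29 log2), and 1 was higher and 8 were lower in heterozygous against wild type (median -0.33). The chaperone gene Hspa8 changed by -0.45 ± 0.02 log2 in knockout (SE, edgeR, adjusted p = 9e-21) and by -0.55 ± 0.02 in heterozygous (SE, edgeR, adjusted p = 1.37e-23). Hsp90ab1, another chaperone gene, changed by -0.31 ± 0.02 log2 in knockout (SE, edgeR, adjusted p = 4.46e-17) and by -0.36 ± 0.02 in heterozygous (SE, edgeR, adjusted p = 4.15e-19). Hspb1, a small heat shock protein gene, changed by -0.62 ± 0.07 log2 in knockout (SE, edgeR, adjusted p = 5.46e-10) and by -0.54 ± 0.07 in heterozygous (SE, edgeR, adjusted p = 2.14e-08). The mitochondrial chaperone gene Hspd1 changed by -0.27 ± 0.04 log2 in knockout (SE, edgeR, adjusted p = 2.82e-08) and by -0.53 ± 0.04 in heterozygous (SE, edgeR, adjusted p = 5.74e-16).

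Of 13 genes of amino acid and endoplasmic reticulum stress, 2 were higher and 7 lower in knockout against wild type (median -0.14 log2), and 2 were higher and 6 lower in heterozygous against wild type (median -0.17). Over all tested genes 19.2% were higher and 18.9% lower in knockout, and 19.2% higher and 19.7% lower in heterozygous. Without heterozygous library 1 or wild-type library 2 the heterozygous counts were 0 higher and 4 lower. Asns, the asparagine synthetase gene, changed by -0.52 ± 0.05 log2 in knockout (SE, edgeR, adjusted p = 1.06e-12) and by -0.49 ± 0.05 in heterozygous (SE, edgeR, adjusted p = 6.82e-12). Ddit4, a stress-induced inhibitor of mTOR signalling, changed by -0.53 ± 0.07 log2 in knockout (SE, edgeR, adjusted p = 2.98e-08) and by -0.20 ± 0.07 in heterozygous (SE, edgeR, adjusted p = 0.0168). Cebpb, a bZIP factor gene, was higher by 0.61 ± 0.06 log2 in knockout (SE, edgeR, adjusted p = 5.77e-08) and by 0.18 ± 0.06 in heterozygous (SE, edgeR, adjusted p = 0.0172). Hspa5, the main chaperone gene of the endoplasmic reticulum, changed by -0.08 ± 0.02 log2 in knockout (SE, edgeR, adjusted p = 0.00163) and by -0.20 ± 0.02 in heterozygous (SE, edgeR, adjusted p = 3.25e-10). Atf4, an activator of Atf3 in amino acid stress, changed by -0.14 ± 0.04 log2 in knockout (SE, edgeR, adjusted p = 0.000933) and by -0.17 ± 0.04 in heterozygous (SE, edgeR, adjusted p = 0.000129).

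**Figure D4:**
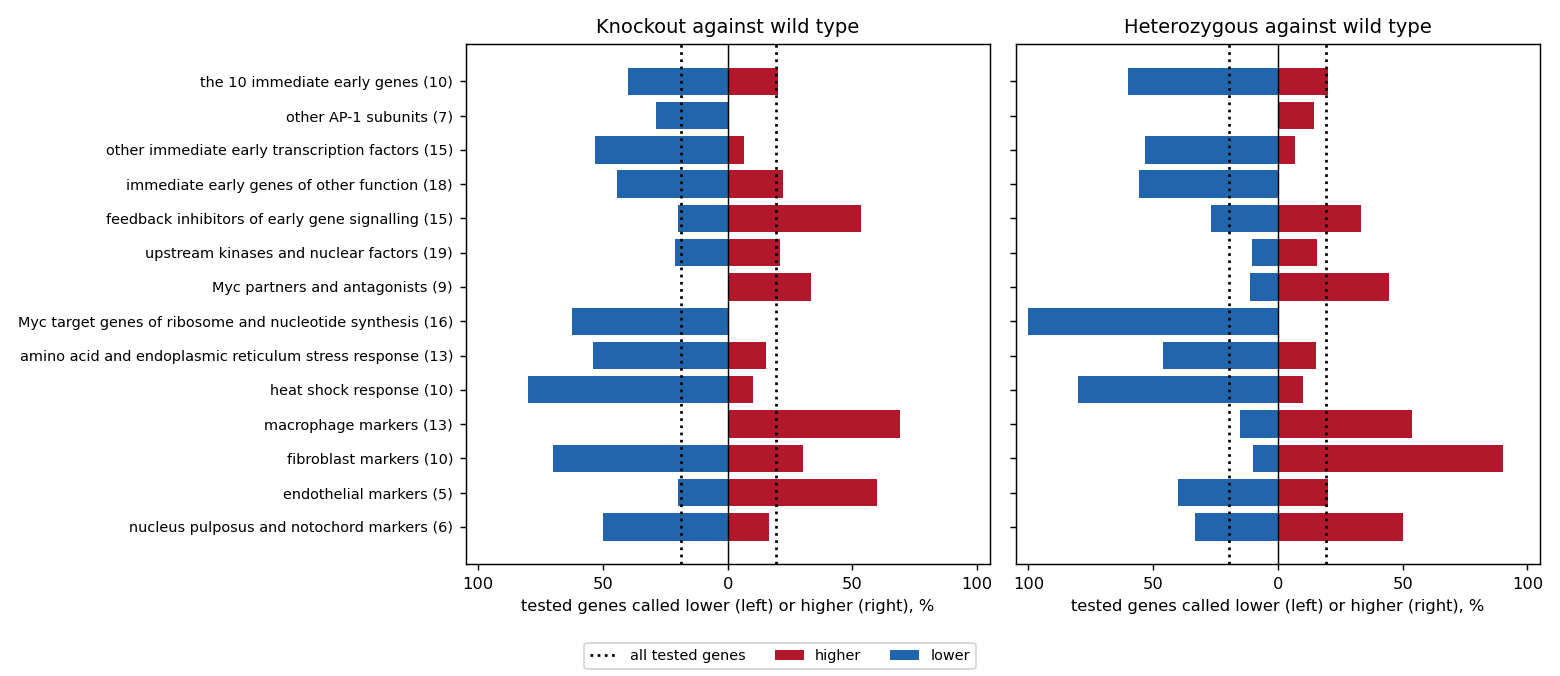
Share of tested genes in each list (rows, number tested in brackets) that passed an adjusted p of 0.05 as lower (left) or higher (right), in knockout against wild type (left panel) and heterozygous against wild type (right panel); dotted lines are the shares over all tested genes. All 16 Myc target genes were lower in heterozygous, and 8 of 10 heat shock genes were lower in each comparison.

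Markers of cell types also differed between the genotypes, and their part in the results was not tested. Of 13 tested macrophage markers, 9 were higher and 0 lower in knockout against wild type, and 7 were higher and 2 lower in heterozygous against wild type. Their summed level was 16657 to 16847 CPM in knockout, 17535 to 17654 CPM in heterozygous and 14405 to 14679 CPM in wild type, and Aif1 was at 0. Mrc1 was higher by 1.28 ± 0.02 log2 in knockout (SE, edgeR, adjusted p = 1.29e-38) and by 1.30 ± 0.02 in heterozygous (SE, edgeR, adjusted p = 5.14e-39). The next smallest p-values in the list belonged to Itgam (0.61 ± 0.02 log2) and Cd68 (0.55 ± 0.03 log2) in knockout, and to Lyz2 (0.29 ± 0.02 log2) and Adgre1 (0.36 ± 0.03 log2) in heterozygous. The 2 markers lower in heterozygous were Fcgr1 (-0.29 ± 0.06 log2) and C1qa (-0.12 ± 0.02 log2). Lyz2 made up much of the macrophage sum, with means of 7025 CPM in knockout, 8845 in heterozygous and 7211 in wild type. Mrc1 had means of 1823, 1853 and 751 CPM in the same order. Of 10 fibroblast markers, 3 were higher and 7 lower in knockout against wild type, and 9 were higher and 1 lower in heterozygous against wild type. They summed to 23480 to 23602 CPM in knockout, 44517 to 45722 CPM in heterozygous and 37869 to 38477 CPM in wild type. Col1a1 (-0.97 ± 0.02 log2), Postn (-1.04 ± 0.02 log2) and Fn1 (-0.62 ± 0.02 log2) were lower in knockout, while Postn (1.57 ± 0.02 log2), Dcn (1.58 ± 0.03 log2) and Pdgfra (1.65 ± 0.04 log2) were higher in heterozygous. The sum is carried by Fn1 and the collagen genes, and the 3 markers that rose in knockout were Dcn (0.82 ± 0.03 log2), Lum (1.013 ± 0.09 log2) and Pdgfra (0.96 ± 0.04 log2).

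Of 5 tested endothelial markers, 3 were higher and 1 lower in knockout against wild type, and 1 was higher and 2 lower in heterozygous against wild type, where without heterozygous library 2 the counts were 0 and 1. They summed to 74.2 to 77.4 CPM in knockout, 27.6 to 29.5 CPM in heterozygous and 34.8 CPM in both wild-type libraries, and Cldn5 was at 0. Vwf (1.43 ± 0.08 log2) and Kdr (1.35 ± 0.14 log2) were higher in knockout, where Cdh5 was lower (-2.71 ± 0.31 log2). In heterozygous Cdh5 (-3.14 ± 0.33 log2) and Kdr (-0.53 ± 0.15 log2) were lower and Tek (1.93 ± 0.65 log2) was higher. The calls of Kdr and Tek in heterozygous were lost without heterozygous library 2 (edgeR, adjusted p = 0.0777 and 0.22), and that of Tek also without wild-type library 2 (edgeR, adjusted p = 0.164). Of 8 lymphocyte and neutrophil markers 0 were tested, 6 were at 0 in every library, and their sum was at most 0.176 CPM. Of 6 tested nucleus pulposus and notochord markers, 1 was higher and 3 lower in knockout against wild type, and 3 were higher and 2 lower in heterozygous against wild type. They summed to 62.8 to 63.0 CPM in knockout, 111 to 119 CPM in heterozygous and 73.4 to 77.7 CPM in wild type, and T, Shh and Noto were at 0. In knockout Krt19 (-2.55 ± 0.20 log2) and Foxf1 (-0.42 ± 0.10 log2) were lower and Pax1 (0.54 ± 0.08 log2) was higher. Foxf1 was at -0.22 log2 without wild-type library 1 and did not pass (edgeR, adjusted p = 0.135, in alternatives that began at 5.69e-07), and the counts were then 1 and 1. In heterozygous Pax1 (1.70 ± 0.07 log2) and Car3 (3.60 ± 0.44 log2) were higher and Krt19 (-4.39 ± 0.25 log2) was lower. Foxf1 was higher in heterozygous (0.56 ± 0.09 log2), opposite to its direction in knockout. Cd24a was lower in knockout (-0.38 ± 0.14 log2) and in heterozygous (-1.05 ± 0.14 log2). The heterozygous sum is carried by Pax1 and Foxf1, with means of 65.6 and 36.2 CPM there.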

How the data were processed

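RNA sequencing of 6 libraries was analysed, 2 for each of 3 Chsy3 genotypes. The deposited table holds read counts per gene symbol, raw as judged from the values. HISAT2 version 2.0.4 and build GRCm38 come from the submitters' processing notes. The sources used here do not give the counting tool, annotation or strand setting, so reads of overlapping and antisense genes may be shared. RNA had an integrity number above 8.0, per the labels' protocols.

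Counts were tested with edgeR version 4.0.16 (R version 4.3.3) by the quasi-likelihood F test with robust estimation, two-sided, on all 6 libraries in 1 fit with 3 residual degrees of freedom. TMM factors lay between 0.974 and 1.02, and the default filter by group left 16061 genes. Benjamini-Hochberg adjustment covered all of them, never a list. SE is the size of the log2 fold change divided by the square root of F. The procedure was tested on simulated counts. CPM use TMM-scaled library sizes, with a prior count of 2 on the log2 scale for patterns. RPKM divide CPM by the union of exons in GENCODE M21 (GRCm38). A count of 0 allows up to 3 counts, or 0.0885 to 0.101 CPM, for counting error only.

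The 10 genes and all lists were chosen with earlier results of these data known. In each list the 3 tested genes with the smallest p in knockout against wild type and the 3 in heterozygous against wild type were named. The 3 genes nearest in pattern were named for each of the 10 other than Fosb, whose result is not reported here, leaving out clones and predicted genes. Alternatives were RLE factors, library totals alone, DESeq2 version 1.42.0, no filter, a filter with a minimum count of 30, the 4 libraries compared alone, a replicate block, and leaving out each library.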

Additional observations from a re-analysis of the deposited data

How the results depend on the processing

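Over 13 alternatives for each of the 10 genes and 3 comparisons, 369 values kept their direction and their side of the threshold, 18 lost the call, 2 gained it and 1 turned its direction. The last was Fosb in knockout against wild type, not called in any setting, which lay between -0.082 (without knockout library 2) and 0.20 log2 (without knockout library 1) when single libraries were left out. Leaving out 1 library gave 5064 to 6261 called genes in knockout against wild type, 5186 to 6228 in heterozygous against wild type and 4823 to 6057 in knockout against heterozygous. Of the 10 genes, 6 to 6 were then called in knockout against wild type, 5 to 8 in heterozygous against wild type and 3 to 6 in knockout against heterozygous. A lone library is then assumed to vary like the other groups. With the replicate number as a block, 6 of the 10 genes and 6080 of all genes were called in knockout against wild type, 8 and 6222 in heterozygous against wild type, and 6 and 5913 in knockout against heterozygous. The numbers do not pair the libraries, since deviations of same-numbered libraries correlated at -0.0246 to 0.0222. Among the other lists 531 counts stayed within 1.5 times and 15 did not, and among their named genes 988 values kept their call, 13 lost it and 12 gained it. Depth limits Fosb, Egr2 and Egr3 most, whose lowest counts were 54, 71 and 132.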

Other observations

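Junb and Ier2 lie 0.312 Mb apart on chromosome 8 (GRCm38). Among the immediate early transcription factors followed here, they had the closest pattern over the 6 libraries, at a root mean square difference of 0.058. Genes outside this set were nearer to each of them, with Mpv17l2 at 0.011 from Junb and Tbrg4 at 0.033 from Ier2. Whether their place on the chromosome has a part in their pattern was not tested. Egr1, the gene with the largest change against wild type, lies on chromosome 18, as Chsy3 does, 24.3 Mb away. The heat shock genes Hspa1a and Hspa1b are near-identical copies, and both were too low to be tested.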
